A study of Mus musculus with 14 samples.

Results

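Chromatin accessibility around 9 co-receptor genes of T cells (Ctla4, Icos, Cd28, Pdcd1, Tigit, Cd96, Btla, Havcr2 and Lag3) was profiled with bulk ATAC-seq on Treg cells whose transcription factor Foxp3 had, or had not, been degraded. A window of the deposited count table was assigned to a gene when the start site nearest to the window's centre, among protein-coding genes and within 100 kb, was that gene's. By this rule 383 of the 240778 windows belonged to the 9 genes: 82 to Cd28, 66 to Ctla4, 64 to Icos, 57 to Btla, 42 to Tigit, 26 to Cd96, 23 to Pdcd1, 14 to Lag3 and 9 to Havcr2. Windows are of equal length and can overlap, and these 383 formed 257 separate regions.

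All mice were Foxp3AID, carrying Foxp3 fused to an auxin-inducible degron together with ZsGreen and Cre expressed from the Foxp3 locus. All received 5-ph-IAA, the auxin analog that starts degradation. The study describes accessibility in Foxp3AID/WT mice, which are heterozygous females because Foxp3 is X-linked. Their Treg cells that express the Foxp3WT allele keep Foxp3. The study states that these cells hold immune tone comparable between genotypes. R26TIR1(F74G) mice also carried the plant ubiquitin ligase subunit TIR1(F74G) with mCherry at the Rosa26 locus behind a stop that Cre removes, whereas R26WT mice had no TIR1 and kept Foxp3. The labels give 4 mice of each genotype after 3 days of treatment and 3 of each after 7 days, 1 library per mouse, with Treg cells from spleen and lymph nodes pooled. The labels give no age and no activation state. The study describes accessibility of resting and activated cells sorted apart, and which of these the libraries hold is not known here. In the study's sort, mCherry was an added gate for R26TIR1(F74G) cells alone, so gate and genotype cannot be told apart. Libraries held 5653289 to 20184487 counts in windows, and the shallowest were day 3 R26TIR1(F74G) replicate 1 and day 7 R26WT replicate 3. Degradation acts on Foxp3 protein, which accessibility does not measure; the 3 windows of Foxp3 itself summed to 16.9 CPM in R26WT and 14.3 in R26TIR1(F74G) (log2 fold change -0.24, adjusted p = 0.303 by edgeR).

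Co-receptors tune the signal of the T cell receptor. Cd28 and Icos are costimulatory. Ctla4 competes with Cd28 for Cd80 and Cd86 on antigen-presenting cells and removes these ligands from their surface, and it is required for Treg cells to suppress. Pdcd1 (PD-1), Btla, Lag3, Havcr2 (TIM-3) and Tigit are inhibitory, and Cd96 shares ligands of the nectin family with Tigit.

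RefSeq promoter sequences of build GRCm38.p6, 250 bases before to 50 after a start site, were at hand for 6 of the 9 genes (Ctla4, Pdcd1, Tigit, Cd96, Btla and Havcr2). These were searched on both strands for a forkhead motif (TGTTTAC), an AP-1 motif (TGANTCA), an NFAT motif (TGGAAA), a RUNX motif (TGTGGT), an ETS motif (CCGGAA) and a STAT motif (TTC and GAA separated by 3 bases). 4 promoters are shown: that of Ctla4, whose most accessible window lies on it; that of Pdcd1, the gene that came closest to a genotype difference; that of Cd96, which held the most motif matches; and that of Havcr2, on which no window lay. Capitals mark motif matches. The coordinates are chr1:60908775-60909074 on the plus strand for Ctla4, chr1:94052504-94052803 on the minus strand for Pdcd1, chr16:46120199-46120498 on the minus strand for Cd96 and chr11:46454681-46454980 on the plus strand for Havcr2.
Ctla4: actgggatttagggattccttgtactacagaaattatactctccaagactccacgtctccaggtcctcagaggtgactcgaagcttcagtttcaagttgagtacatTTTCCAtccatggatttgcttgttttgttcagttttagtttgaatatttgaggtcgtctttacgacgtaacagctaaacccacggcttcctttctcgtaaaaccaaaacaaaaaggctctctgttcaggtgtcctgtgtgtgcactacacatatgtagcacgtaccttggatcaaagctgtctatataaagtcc
Pdcd1: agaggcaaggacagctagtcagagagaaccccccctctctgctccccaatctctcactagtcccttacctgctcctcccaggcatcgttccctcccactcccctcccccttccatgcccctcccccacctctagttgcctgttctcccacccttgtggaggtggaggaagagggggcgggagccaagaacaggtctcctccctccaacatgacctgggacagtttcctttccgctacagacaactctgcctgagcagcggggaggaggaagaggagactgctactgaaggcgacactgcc
Cd96: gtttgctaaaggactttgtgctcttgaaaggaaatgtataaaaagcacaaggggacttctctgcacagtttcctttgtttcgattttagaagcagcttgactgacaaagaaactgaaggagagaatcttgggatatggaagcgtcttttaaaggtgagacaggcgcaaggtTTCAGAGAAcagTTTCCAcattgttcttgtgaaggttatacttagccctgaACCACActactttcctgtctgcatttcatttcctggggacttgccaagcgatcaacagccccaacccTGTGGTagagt
Havcr2: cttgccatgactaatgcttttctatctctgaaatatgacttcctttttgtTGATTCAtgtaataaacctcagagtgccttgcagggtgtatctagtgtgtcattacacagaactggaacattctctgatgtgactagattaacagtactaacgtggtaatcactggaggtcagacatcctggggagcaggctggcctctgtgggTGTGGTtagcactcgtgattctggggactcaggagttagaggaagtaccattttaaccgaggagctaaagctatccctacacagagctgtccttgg
The forkhead motif was found in 0 of these 6 promoters and in 3.65% of all 32851 promoters in the RefSeq table. The RUNX motif was found in 4 of the 6 (Tigit, Cd96, Btla and Havcr2) against 16.8% of all promoters. NFAT matches stood in Ctla4 and Cd96 (21.4% of all promoters), a STAT match in Cd96 (8.3%) and an AP-1 match in Havcr2 (7.81%), and the ETS motif was in none of the 6 (14.9%). In Cd96 the RUNX motif is present on both strands. Pdcd1 held no match and had the highest GC content of the 6, 60.7% against 41.3% to 49.0% in the others and a median of 52.7% over all promoters. A match is a description of these letters and does not show binding.

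Accessibility was spread over promoters, introns and intergenic regions, and its layout differed from gene to gene. Values are CPM, counts relative to all counts in windows of a library, scaled between libraries by TMM. Over the 14 mice the 383 windows had mean CPM of 0.666 to 22.5 with a median of 2.14, against a median of 1.80 over all windows, and 19.1% of them reached 5 CPM against 18.9% of all windows. Fewer of them lay within 1 kb of a start site than among all assigned windows (10.97% against 23.4%), and more lay between genes, 40.0% upstream (21.9% of all) and 24.3% downstream (9.51% of all).

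Among the costimulatory receptors, Cd28 had the 2 most accessible windows of its own region at its start site (chr1:60746264-60746465, 21.5 ± 3.00 CPM, SD, n = 14) and 30.8 kb downstream of it, beyond the gene's end (chr1:60777041-60777242, 22.03 ± 2.84 CPM). Icos had its most accessible window inside the gene, 17.1 kb from the start (chr1:60977735-60977936, 19.1 ± 2.26 CPM). The window nearest the Icos start site (chr1:60960529-60960730) held only 2.31 ± 0.490 CPM. A window 19.6 kb upstream of Icos, between Ctla4 and Icos, held 14.2 CPM.

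Ctla4 was most accessible at its start site, where chr1:60908913-60909114 held 15.3 ± 2.47 CPM. By mouse this window held 12.1, 16.1, 13.9 and 20.2 CPM in day 3 R26WT, 19.4, 13.8, 14.2 and 14.2 in day 3 R26TIR1(F74G), 18.6, 14.8 and 13.8 in day 7 R26WT and 15.4, 14.01 and 12.95 in day 7 R26TIR1(F74G). The groups overlapped on both days. Further windows inside Ctla4 held 13.5 CPM (2.0 kb) and 11.8 CPM (4.5 kb), and 50 of its 66 windows lay upstream between genes, the farthest at -80.7 kb, with 10.4 CPM at -26.1 kb and 8.95 CPM at -55.5 kb. Cd28, Ctla4 and Icos are neighbours, with start sites 162.6 kb and 51.7 kb apart, so a window between them was given to the nearer start and may act on either gene.

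**Figure D1:**
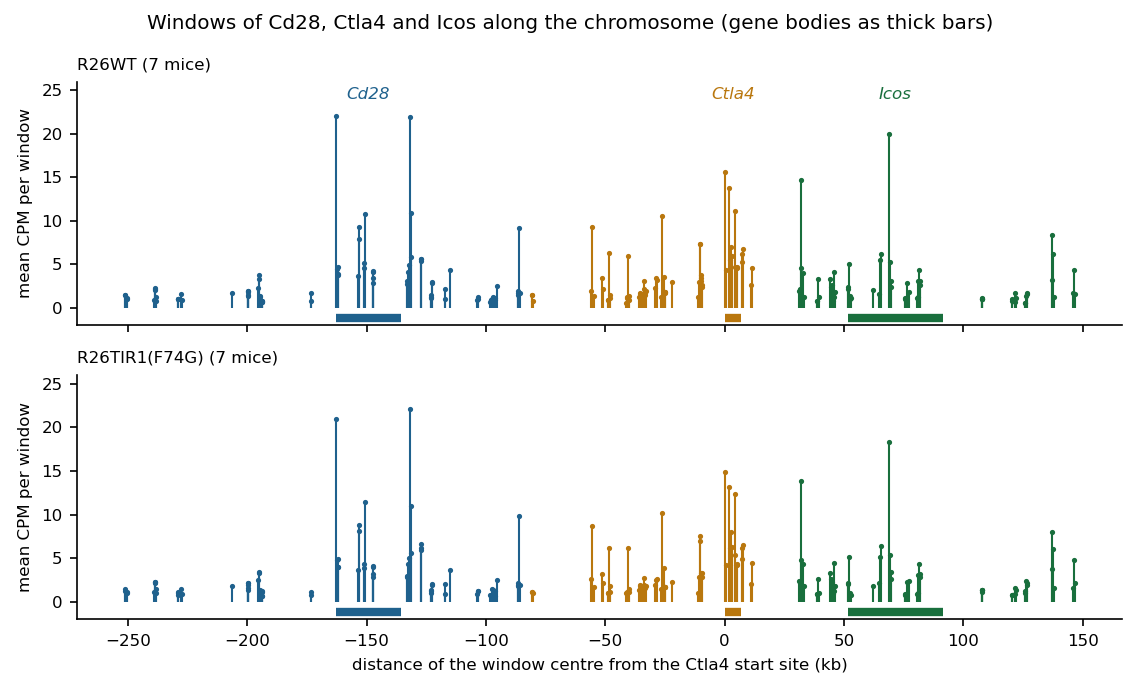
Mean CPM (y axis) of each window of Cd28, Ctla4 and Icos against the distance of its centre from the Ctla4 start site in kb (x axis), as the mean of 7 R26WT mice (upper panel) and 7 R26TIR1(F74G) mice (lower panel); thick bars are the gene bodies. The tallest windows of each gene stand at the same places and near the same heights in both panels, 15.7 and 14.9 CPM at the Ctla4 start site, 22.01 and 20.98 CPM at the Cd28 start site and 19.96 and 18.3 CPM inside Icos.

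Of the inhibitory receptors, Pdcd1 had a window of 10.3 ± 1.03 CPM at its start site (chr1:94052458-94052659) and a taller one 26.7 kb upstream (chr1:94079160-94079361, 18.5 ± 2.79 CPM). Tigit was most accessible 33.9 kb upstream (chr16:43698972-43699173, 22.5 ± 2.75 CPM), the highest of all 383 windows, and 10 of its windows lie inside the neighbouring gene Zbtb20. At the start of the Tigit gene record the window (chr16:43664887-43665088) held 2.67 ± 0.558 CPM, while a window 0.9 kb inside it, on the promoter of the RefSeq table (chr16:43664164-43664365), held 7.70 ± 1.38 CPM and a further one there, at 0.7 kb, held 10.24 CPM. Cd96 was most accessible at its start site (chr16:46120104-46120305, 14.5 ± 2.32 CPM), as was Btla with 15.3 ± 1.63 CPM at 0.4 kb (chr16:45223990-45224191) and 13.6 ± 1.46 CPM at 0.1 kb (chr16:45223656-45223857). Lag3 held 1.20 ± 0.398 CPM at its start site (chr6:124912035-124912236) and 10.8 ± 1.51 CPM 8.7 kb downstream, between genes (chr6:124903644-124903845). Of its 14 windows, 8 lay downstream between genes. Those windows were given to Lag3 as the nearest start and may act on another gene. Havcr2 had no window within 1 kb of its start, and its tallest lay 7.1 kb upstream (chr11:46447691-46447892, 5.08 ± 0.991 CPM).

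Ordered by the most accessible window, the genes ran Tigit, Cd28, Icos, Pdcd1, Btla, Ctla4, Cd96, Lag3 and Havcr2. Only the step from Lag3 to Havcr2 had ranges over the 14 mice that did not overlap (9.23 to 13.6 against 3.73 to 6.65 CPM). Tigit was above Cd28 in 8 of 14 mice, Btla above Ctla4 in 7 and Ctla4 above Cd96 in 7, so these neighbours did not differ beyond their spread. At the start site the order was Cd28, Ctla4, Cd96, Btla, Pdcd1, Tigit, Icos, Havcr2 and Lag3, where Havcr2 stands for a window 6.2 kb away (chr11:46448592-46448793, 2.29 ± 0.417 CPM) and the ranges of Pdcd1 (8.85 to 11.5) and Tigit (2.09 to 3.69) did not overlap. The place of Tigit rests on the start of its gene record: the tallest of the 3 windows on its RefSeq promoter held 10.24 CPM, near the 10.27 CPM of Pdcd1. The median over 11426 genes with a window within 1 kb was 14.9 CPM in the window nearest the start site.

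The comparison of R26TIR1(F74G) with R26WT asks whether accessibility at these genes differed with loss of Foxp3 protein. No untreated mice are among the samples, so Foxp3 loss and the TIR1(F74G) allele itself cannot be told apart. No window of the 9 genes was called in any comparison at an adjusted p under 0.05. With the days joined and day fitted as a covariate, 0 of 383 windows were called, against 0.0112% of all 240778 windows. On day 7 the counts were 0 of 383 (0.00463% of all windows tested) and on day 3 they were 0 of 379 (0% of all). At an unadjusted p under 0.05 there were 30 of 383 windows over both days (7.83%, against 6.73% of all windows), 28 on day 7 (7.31% against 5.95%) and 12 on day 3 (3.17% against 7.55%). DESeq2 also called 0 windows of these genes in each of these comparisons.

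The typical change was near 0. Over both days the median log2 fold change of the 383 windows was 0.02, against 0.0034 over all windows, and 56.1% were above 0, against 50.7% of all. Among the 73 windows of at least 5 CPM the values ran from -0.25 to 0.20 with a median of -0.01. On day 7, 55 windows had genotype groups that did not overlap (14.4% against 11.8% of all windows), 31 higher in R26TIR1(F74G) (5.81% of all windows) and 24 lower (6.02%). On day 3 there were 18 (4.75% against 4.1%), 15 higher (2% of all) and 3 lower (2.11%). On both days, in 1 direction, there were 4 (1.04% against 0.284% of all windows): 1 of Cd28 at -31.8 kb, lower, and 1 of Icos at 94.8 kb and 2 of Pdcd1 at -94.7 and -94.9 kb, higher. The 2 Pdcd1 windows belong to 1 chain of overlapping windows and are not independent.

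**Figure D2:**
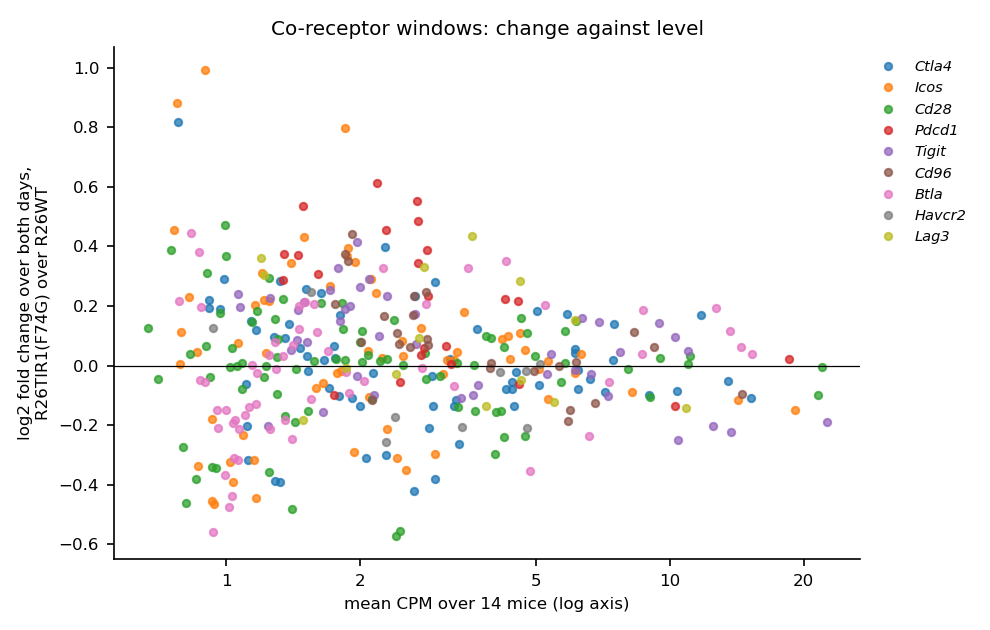
Log2 fold change between genotypes over both days (y axis, R26TIR1(F74G) over R26WT, edgeR) against mean CPM over 14 mice (x axis, log scale) for the 383 windows, colored by gene. Changes fan out to between -0.57 and 0.99 among windows of few counts and stay between -0.25 and 0.20 above 5 CPM; Pdcd1 windows below 5 CPM lie mostly above 0.

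The counts of all windows of a gene were also added up per mouse and tested across 15859 genes. These sums are CPM of the counts assigned to genes, a separate scale from that of single windows. None of the 9 genes was called over both days (0.0189% of all genes), on day 7 (0% of all genes) or on day 3 (0.107% of all genes), although on day 3 all 9 fold changes were above 0 (50.1% of all genes). Of these, 3 turned below 0 when 1 mouse was left out (Tigit -0.014, Cd96 -0.014 and Havcr2 -0.040 at the lowest), and Lag3 gave -0.063 with windows within 10 kb alone. Groups did not overlap on day 3 for 3 of the 9 genes (Ctla4, Icos and Pdcd1; 7.67% of all genes) and on day 7 for 1 (Pdcd1; 14.5% of all genes). In bulk samples a change in the share of cells that are open at a site and a change in every cell cannot be told apart.

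Pdcd1 was the gene nearest to a difference. Its summed level was 86.4, 92.4, 83.9 and 85.5 CPM in day 3 R26WT mice and 108.1, 100.6, 102.4 and 93.9 in day 3 R26TIR1(F74G) mice. On day 7 it was 84.1, 85.3 and 81.6 CPM in R26WT and 92.6, 89.8 and 92.6 in R26TIR1(F74G). Each R26TIR1(F74G) mouse was thus above each R26WT mouse of its day on both days, a pattern that 0.378% of all genes showed in this direction. The log2 fold change was 0.18 over both days (95% interval 0.08 to 0.27, adjusted p = 0.146), 0.21 on day 3 (0.07 to 0.35, adjusted p = 0.176) and 0.13 on day 7 (-0.01 to 0.27, adjusted p = 0.687). In edgeR the difference therefore did not pass, whereas DESeq2 on the same counts called it over both days (log2 fold change 0.18, adjusted p = 0.0106) and called 2.02% of the genes to which it gave an adjusted p, so the call rests on the tool.

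Fold changes above 0 at Pdcd1 were found in its less accessible windows, and its 2 tallest windows were near 0 or below. Of its 23 windows, 19 had a fold change above 0 over both days (50.7% of all windows) and 7 had an unadjusted p under 0.05 (6.73% of all windows), all higher in R26TIR1(F74G). These 7 lay at only 2 places, 4 overlapping or adjacent windows from -94.5 to -94.9 kb and 3 overlapping windows from -0.8 to -0.9 kb. At the start site R26WT mice held 10.7 ± 0.899 CPM and R26TIR1(F74G) mice 9.83 ± 1.02 (SD, n = 7, log2 fold change -0.14, adjusted p = 0.865), and at -26.7 kb they held 18.3 ± 2.74 and 18.8 ± 3.04 (0.02, adjusted p = 0.989). The smallest p values lay at -94.8 and -94.9 kb, in overlapping windows far from the gene body. The first (chr1:94147213-94147414) held 1.47, 2.45, 2.46 and 1.95 CPM in day 3 R26WT, 4.50, 2.84, 3.88 and 2.98 in day 3 R26TIR1(F74G), 2.07, 1.92 and 2.85 in day 7 R26WT and 2.67, 2.62 and 3.09 in day 7 R26TIR1(F74G). Genotypes did not overlap on day 3 and overlapped on day 7, and over both days the log2 fold change was 0.55 (0.22 to 0.89, adjusted p = 0.438). The second (chr1:94147375-94147576) held 1.04 to 2.25 CPM in day 3 R26WT against 2.41 to 3.65 in day 3 R26TIR1(F74G) and 1.86 to 2.13 against 2.19 to 2.68 on day 7 (0.61, 0.24 to 0.98, adjusted p = 0.441). A window 0.8 kb upstream of the start site (chr1:94053275-94053476) held 1.49, 1.86 and 1.65 CPM in day 7 R26WT and 3.32, 2.74 and 2.99 in day 7 R26TIR1(F74G), and overlapped between genotypes on day 3 (both days 0.48, adjusted p = 0.552). With windows within 10 kb alone the Pdcd1 sum differed by 0.17 (adjusted p = 0.321), and with windows that do not overlap by 0.13 (adjusted p = 0.223).

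**Figure D3:**
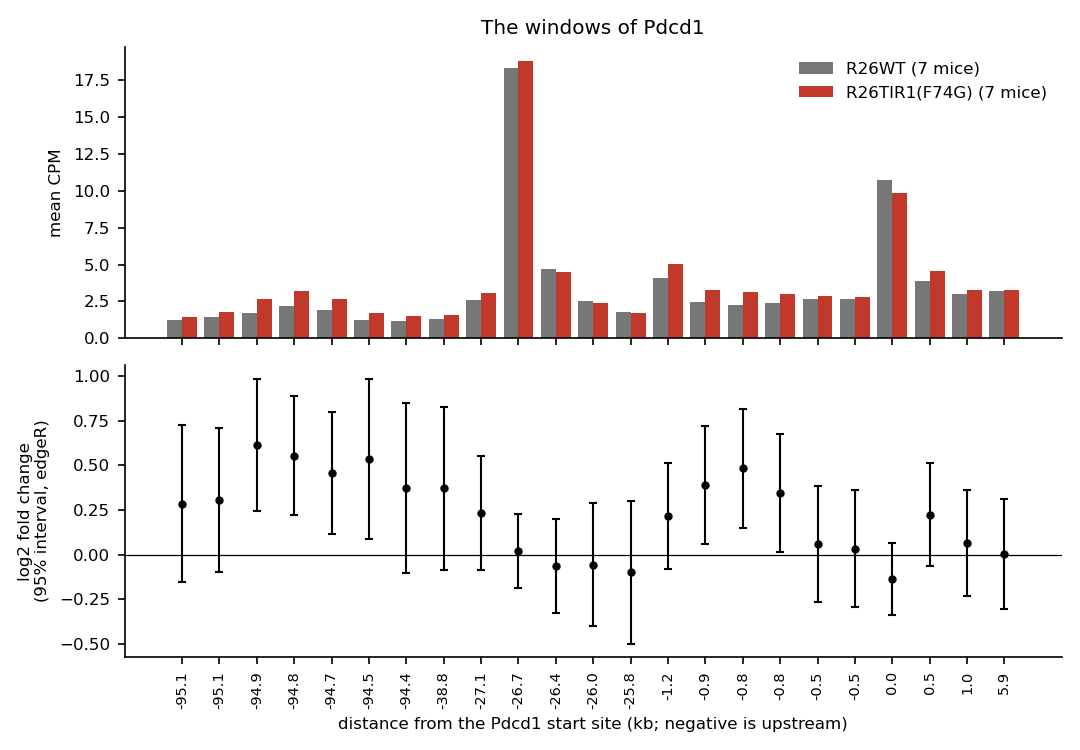
The 23 windows of Pdcd1 in order of their distance from the start site in kb (x axis, not to scale). Upper panel, mean CPM of 7 R26WT (grey) and 7 R26TIR1(F74G) (red) mice; lower panel, log2 fold change over both days with its 95% interval (edgeR). The windows near -94.9 kb and near -0.8 kb lie above 0, the tall windows at -26.7 kb and at the start site lie at 0.02 and -0.14.

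The summed T cell markers were lower in R26TIR1(F74G) on day 3, without overlap but by a small margin. The sums of the other marker lists overlapped between genotypes on day 3. Of all single genes, 7.67% had no overlap on day 3, in either direction, and no such share is at hand for sums of several genes. By gene, the day 3 log2 fold change in edgeR was -0.18 for Cd3d (adjusted p = 0.21) and -0.18 for Cd3e (adjusted p = 0.265). For Cd4 it was -0.08 (adjusted p = 0.655). Summed over Cd3d, Cd3e and Cd4 (3 of the 4 markers had windows), the level was 258.7 to 275.2 CPM in day 3 R26WT and 232.6 to 257.2 in day 3 R26TIR1(F74G), and 251.3 to 273.5 against 243.1 to 259.1 on day 7, with 0 of 3 called over both days. The sum of activated-cell markers was 756.7 to 819.3 CPM in R26WT and 756.9 to 811.2 in R26TIR1(F74G), and that of resting-cell markers 2284 to 2428 and 2248 to 2496, with 0 of 10 and 0 of 6 called. The part of T cell markers in the Pdcd1 values was not tested.

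Ctla4 itself showed a small interval around 0. Its sum was 250.9, 249.1, 248.1 and 259.1 CPM in day 3 R26WT, 261.3, 275.6, 261.4 and 259.7 in day 3 R26TIR1(F74G), 279.6, 241.7 and 266.5 in day 7 R26WT and 263.1, 236.1 and 261.0 in day 7 R26TIR1(F74G). On day 3 the R26TIR1(F74G) mice stood above the R26WT mice without overlap by a small margin, and on day 7 they overlapped. The log2 fold change was 0.02 over both days (95% interval -0.06 to 0.10, adjusted p = 0.871). This bounds a change common to both days to between 0.957-fold and 1.07-fold, and does not bound a change on a single day. Day 3 gave 0.07 (0.980-fold to 1.12-fold, adjusted p = 0.481) and day 7 gave -0.05 (0.877-fold to 1.06-fold, adjusted p = 0.867). At the start site of Ctla4 the log2 fold change over both days was -0.11 (-0.32 to 0.10, adjusted p = 0.907).

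**Figure D4:**
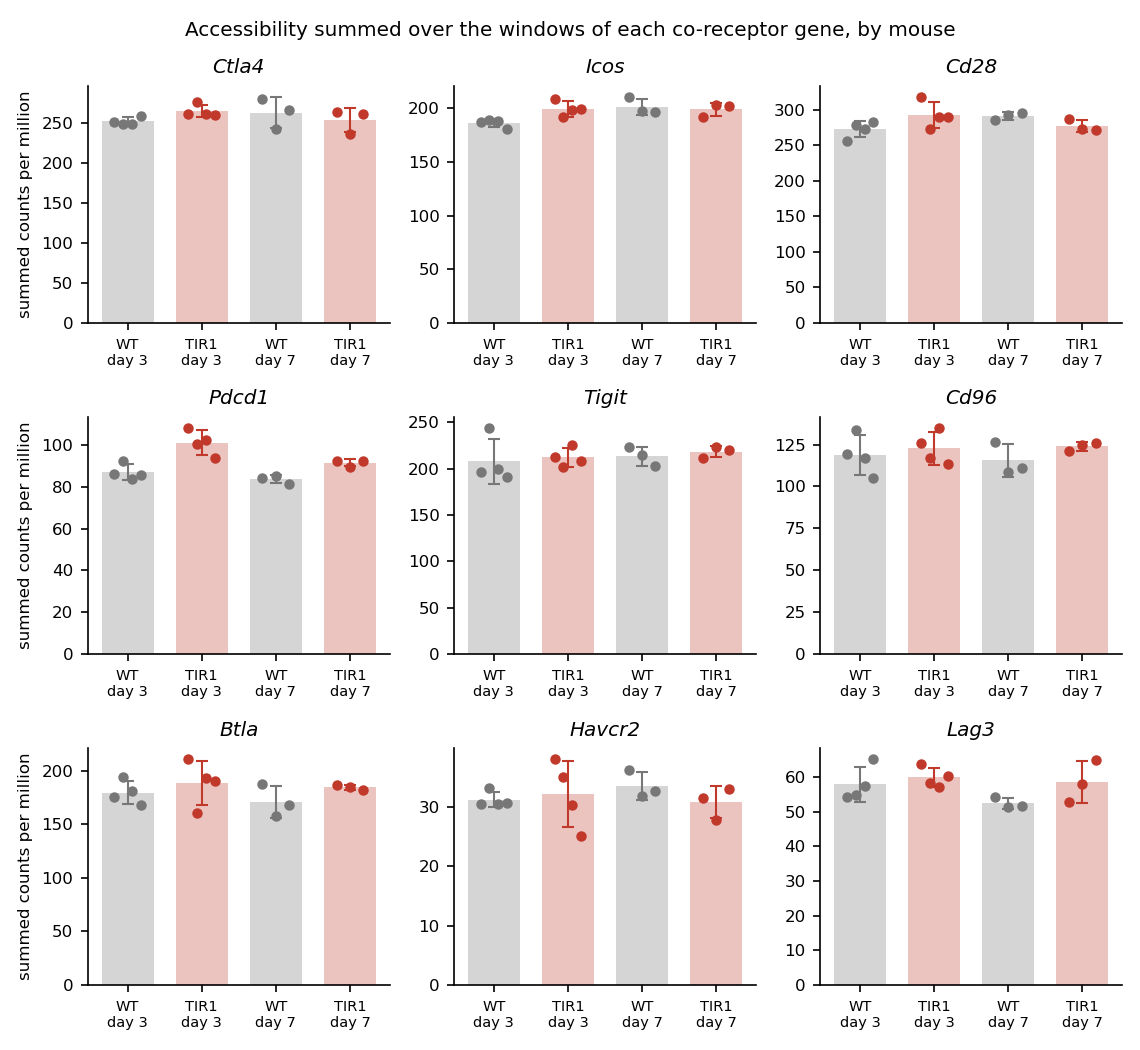
Summed CPM of all windows of each gene (y axis, from 0) by mouse (points), with the group mean (bar) and SD (error bar), for R26WT (WT, grey) and R26TIR1(F74G) (TIR1, red) on day 3 (4 mice each) and day 7 (3 each). Pdcd1 points of R26TIR1(F74G) lie above those of R26WT on both days, 93.9 to 108.1 against 83.9 to 92.4 and 89.8 to 92.6 against 81.6 to 85.3.

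Icos and Cd28, the costimulatory neighbours, also had fold changes near 0 over both days. The Icos sum was 180.3 to 188.5 CPM in day 3 R26WT and 191.3 to 208.8 in day 3 R26TIR1(F74G), without overlap, but 196.4 to 210.0 and 191.8 to 202.9 on day 7. Over both days its log2 fold change was 0.05 (-0.03 to 0.12, adjusted p = 0.596). The Cd28 sum was 256.6 to 282.8 CPM against 272.5 to 317.5 on day 3 and 285.0 to 295.2 against 271.9 to 286.6 on day 7 (both days 0.02, -0.06 to 0.11, adjusted p = 0.836). In both genes the day 3 value was above 0 and the day 7 value below 0. The interaction of day and genotype, the day 7 difference minus the day 3 difference, was -0.16 for Cd28 (-0.32 to -0.01, adjusted p = 0.483), -0.12 for Icos (adjusted p = 0.587) and -0.12 for Ctla4 (adjusted p = 0.601), and none of them passed.

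A group of Icos windows 74.1 to 74.8 kb downstream of the start, 34.5 kb past the end of the gene, held the smallest p of all 383 windows over both days and on day 7. The window chr1:61035259-61035460 held 1.47, 1.26, 1.502 and 2.12 CPM in day 3 R26WT, 1.26, 2.84, 2.76 and 1.29 in day 3 R26TIR1(F74G), 1.29, 1.63 and 0 in day 7 R26WT and 3.26, 2.92 and 2.33 in day 7 R26TIR1(F74G). Genotypes overlapped on day 3 and did not on day 7, where the value of 0 is from the library of 6348754 counts. The log2 fold change was 1.26 on day 7 (0.60 to 1.93, adjusted p = 0.445) and 0.80 over both days (0.34 to 1.253, adjusted p = 0.393). Its neighbour chr1:61035414-61035615 gave 0.84 on day 7 (adjusted p = 0.609) and -0.15 on day 3. It was at 0 in day 3 R26TIR1(F74G) replicate 1, the shallowest library. The next, chr1:61035483-61035684, gave 0.80 on day 7 and -0.29 on day 3. It overlaps chr1:61035414-61035615, which overlaps chr1:61035259-61035460, so these windows are not independent. Windows chr1:61034800-61035001 and chr1:61034844-61035045 overlap each other and held 0.777 and 0.899 CPM over the 14 mice. They gave 0.79 and 0.97 on day 3, without overlap, and 1.02 each on day 7, with overlap. Over both days they gave 0.88 and 0.99 (adjusted p = 0.573 and 0.455 by edgeR). A Cd28 window 64.5 kb from its start (chr1:60810798-60810999), with 2 to 30 counts per mouse, gave 1.28 on day 3 (adjusted p = 0.519) and -0.76 on day 7, with overlap on both days.

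Tigit, Cd96 and Btla, on chromosome 16, gave intervals that included 0. Their log2 fold changes of the sum over both days were 0.03 for Tigit (-0.07 to 0.13), 0.07 for Cd96 (-0.04 to 0.18) and 0.08 for Btla (-0.02 to 0.19), with adjusted p of 0.837, 0.609 and 0.500. The tall upstream windows of Tigit had fold changes below 0 that did not pass, while that of its sum was above 0. At -33.9 kb R26WT held 23.9 ± 2.78 CPM and R26TIR1(F74G) 21.1 ± 2.04 (SD, n = 7, log2 fold change -0.19, -0.37 to -0.01, adjusted p = 0.715), with groups overlapping on day 3 and not on day 7 (24.4 to 27.0 against 21.2 to 22.2). At -25.5 kb the means were 11.3 and 9.52 CPM (-0.25, adjusted p = 0.667). The start-site windows of Cd96 and Btla gave -0.10 (adjusted p = 0.923) and 0.12 (adjusted p = 0.885), and the tallest window of Btla 0.04 (adjusted p = 0.974).

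Inside Cd96, 11.8 kb from its start, the window chr16:46108355-46108556 held 2.25, 1.79, 2.25 and 1.53 CPM in day 3 R26WT and 2.34, 1.56, 1.94 and 2.09 in day 3 R26TIR1(F74G). On day 7 it held 1.10, 1.51 and 0.900 CPM in R26WT and 2.46, 2.56 and 2.63 in R26TIR1(F74G), without overlap (log2 fold change 1.05, 0.48 to 1.62, adjusted p = 0.491, interaction 1.07, adjusted p = 0.710). A further Cd96 window at 15.6 kb (chr16:46104572-46104773), named after its values were seen, was called on day 7 only when R26WT replicate 1 was left out (log2 fold change 1.52, adjusted p = 0.0216, against 0.59 and adjusted p = 0.822 with all mice). It held 8.01, 1.80 and 3.60 CPM in day 7 R26WT and 4.28, 7.93 and 8.30 in day 7 R26TIR1(F74G), and on day 3 the direction was opposite (-0.42). The Btla window at 59.5 kb (chr16:45283076-45283277) had the smallest p for the interaction (-1.41, adjusted p = 0.566), with 1.71 to 5.58 CPM in day 3 R26TIR1(F74G) and 2.55 to 6.05 in day 7 R26WT.

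Lag3 and Havcr2 had the fewest windows and the widest intervals relative to their level. The Lag3 sum was 54.3 to 65.1 CPM against 57.2 to 63.7 on day 3 and 51.4 to 54.2 against 52.7 to 64.8 on day 7 (both days 0.09, -0.03 to 0.21, adjusted p = 0.519). With windows within 10 kb alone the Lag3 value over both days was -0.013. Lag3 lies on chromosome 6, 11.8 Mb from the Rosa26 locus that carries TIR1(F74G). The Havcr2 sum was 30.5 to 33.2 against 25.2 to 38.0 CPM on day 3 and 31.9 to 36.2 against 27.8 to 33.0 on day 7 (-0.04, -0.20 to 0.13, adjusted p = 0.878), and its tallest window gave 0.01 (adjusted p = 0.998). Over the 9 genes the 95% intervals of the both-day comparison lay between 0.868-fold and 1.21-fold. Those of the 383 single windows were wider and reached from 0.444-fold to 3.03-fold, so larger changes at single windows are not bounded by the sums.

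**Figure D5:**
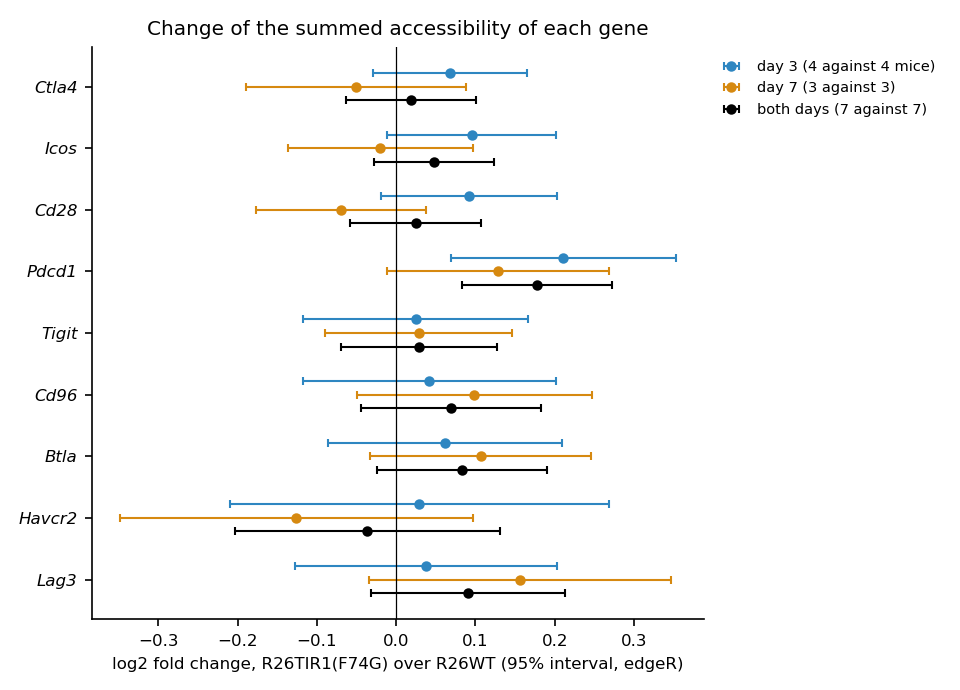
Log2 fold change of the summed accessibility (x axis, R26TIR1(F74G) over R26WT) with its 95% interval from edgeR for each gene (y axis) on day 3, day 7 and over both days. Intervals include 0 except for Pdcd1 on day 3 (0.07 to 0.35) and over both days (0.08 to 0.27).

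Between days, with genotype as a term, none of the 383 windows was called (0.00332% of all windows), nor any of the 9 genes (0% of all genes), and an unadjusted p under 0.05 was found for 20 windows (5.22%, against 5.47% of all) and 1 gene (Pdcd1; 5.53% of all genes). Day 7 and day 3 mice differ in treatment time and may differ in when they were processed, which cannot be told apart. The smallest p was that of a Tigit window on its RefSeq promoter, at 0.9 kb (chr16:43664164-43664365), at 5.19, 8.47, 5.81 and 7.2 CPM in day 3 R26WT and 6.83, 6.55, 6.71 and 7.80 in day 3 R26TIR1(F74G) against 9.30, 9.01 and 7.80 in day 7 R26WT and 9.09, 9.78 and 8.30 in day 7 R26TIR1(F74G). Within R26TIR1(F74G) the days did not overlap, and within R26WT 1 day 3 mouse (8.47) lay above 1 day 7 mouse (7.80) (log2 fold change 0.38, adjusted p = 0.744). The Pdcd1 sum gave -0.10 (-0.19 to -0.0029, adjusted p = 0.884). For the interaction, 0 of 383 windows and 0 of 9 genes were called, as of all windows and all genes (0% each), with 17 windows (4.44% against 6.32% of all) and 1 gene (Cd28; 9.92% of all genes) at an unadjusted p under 0.05.

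The partners of these receptors were read from lists of genes. None of 13 ligands and binding partners, 12 other co-receptors and 18 signalling and trafficking genes was called over both days, on day 7 or on day 3, and the median log2 fold change of their sums over both days was -0.0028, -0.02 and -0.02, against 0.0036 over all genes. The most accessible ligand genes, Hmgb1, Lgals9, Pvr and Icosl, gave 0.02, -0.02, -0.0028 and -0.03. Among other co-receptors, Cd226, the activating rival of Tigit and Cd96, gave 0.10 (adjusted p = 0.262), Cd2 -0.03, Cd5 -0.09 and Cd200 0.10. Of the signalling genes, the kinases Prkcq and Fyn gave -0.03 and 0.03, and the PI3K subunits Pik3r1 and Pik3cd 0.04 and -0.02. Cd80, the ligand shared by Cd28 and Ctla4, named after its value was seen, had the smallest p of the lists, with 74.4 CPM in R26WT and 88.8 in R26TIR1(F74G) (0.25, adjusted p = 0.153). The window nearest the Cd80 start site lay 18.5 kb away and held 1.36 CPM.

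The labelled cell type was read from the window nearest the start site of each marker gene. Those of the T cell genes Cd3e, Cd3d and Cd4 held 11.2, 8.09 and 4.55 CPM and those of the Treg genes Ikzf2, Il2ra, Foxp3 and Ikzf4 held 14.09, 13.03, 8.93 (at 4.3 kb) and 3.20. Those of the B cell genes Ebf1, Cd79a and Pax5 held 1.36, 1.67 and 2.69, the last 2 at 4.7 and 6.1 kb from the start, and no window was assigned to Ms4a1. Those of the myeloid genes Spi1, Cd14, Itgam and Lyz2 held 1.12 to 1.57 CPM, that of Lyz2 3.5 kb away, and Csf1r had none. Cd8b1 held 12.5 CPM against 1.33 at Cd8a. The NK cell genes Ncr1, Klrb1c and Eomes held 1.57, 6.397 and 1.31 CPM, the first 2 in windows 40.4 and 9.8 kb from the start. Summed over each list, B cell markers ranged over 62.9 to 84.3 CPM in R26WT and 59.8 to 72.4 in R26TIR1(F74G), myeloid markers over 56.3 to 76.0 and 53.4 to 68.3, CD8 markers over 88.3 to 109.9 and 95.7 to 111.6, NK cell markers over 482.2 to 512.5 and 495.9 to 544.6 and Treg markers over 578.3 to 618.7 and 573.1 to 618.4, with none called. Most of the NK cell sum came from windows assigned to Klrb1c, at a mean of 366.7 CPM over the 14 mice, against 140.9 for Eomes and 1.715 for Ncr1. Members of the Treg list had fold changes of both signs over both days, 0.10 for Ikzf2 (adjusted p = 0.223), -0.08 for Il2ra (adjusted p = 0.398), -0.24 for Foxp3 (adjusted p = 0.303) and -0.21 for Ikzf4 (adjusted p = 0.579). The part of other cells in the results above was not tested.

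Differences between mice of one group set the resolution. For windows of at least 2 CPM the SD of log2 CPM within groups had a median of 0.24 over 205 windows of these genes, against 0.23 over all such windows. For the gene sums it was 0.05 for Icos, 0.06 for Cd28 and Pdcd1, 0.07 for Ctla4 and 0.10 to 0.16 for the other 5, against a median of 0.11 over 11426 genes with sums of at least 20 CPM. The gene whose sum was most alike over the 14 libraries, by Pearson's r of log2 sums among 15795 genes, was Olfr49 for Ctla4 (0.763), Sycp3 for Icos (0.889), Adgrf2 for Cd28 (0.903), Otud1 for Pdcd1 (0.898) and Osbpl8 for Tigit (0.872). It was St3gal6 for Cd96 (0.902), Stk26 for Btla (0.893), Gm20878 for Havcr2 (0.83) and Spata24 for Lag3 (0.832). These are the highest of many correlations over points that share library depth, and are given as a description. Between the 9 genes themselves r ran from -0.158 to 0.783, the highest for Tigit with Cd96.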

How the data were processed

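Bulk ATAC-seq was measured in 14 libraries of Treg cells, 1 per mouse. The authors aligned reads with Bowtie2 to mm10 (GRCm38), called peaks with MACS2, merged the reproducible ones and counted reads at summits with featureCounts. The deposited values are raw counts per window, not normalized, and the smallest mean count of a window is 10.1. Whether reads were deduplicated or shifted for the transposase before counting is not given in the sources used here.

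Here counts were tested with edgeR 4.0.16 (quasi-likelihood, TMM, mean count of at least 10, Benjamini-Hochberg over all windows or genes, threshold 0.05) in R 4.3.3, between genotypes on each day, jointly with day as a covariate, between days, and for the interaction. Coordinates are as in the table. Start sites came from RefSeq on GRCm38.p6 for 21440 of 21900 protein-coding genes whose strand was found. No column was left unmatched. CPM used TMM factors, and log2 values for spread and likeness a pseudocount of 0.5. Fitting was tested on simulated data with changes placed only in features of at least 50 mean counts, so that test does not cover windows of fewer counts. Libraries held 5653289 to 20184487 counts in windows. Mice are labelled as separate samples. The 18 pairs of libraries of one group differed by more than counting noise (chi-square per degree of freedom 1.62 to 2.46).

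Named windows were, per gene, the most accessible and the one nearest the start site, and the 3 smallest p per comparison. The 4 most accessible genes were named per list. The genes and lists were chosen with earlier results of these data known. Alternatives tried were DESeq2 1.42.0, other scalings and filters, terms for replicate number, mouse name and index group, other distance limits, and leaving out each mouse. Protein sequences and sequences of windows were not used here, and 1 marker gene is not reported here.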

Additional observations from a re-analysis of the deposited data

Results flagged for a closer look

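In day 3 groups of 4 mice, 1 value can stand far from the other 3. Of 70 such groups examined (the 9 gene sums and the named windows, each in both genotypes), 5 had a gap to the nearest value that was above Dixon's 95% critical value for 4 samples, as a share of the range, and chance flags about 1 in 20 groups. The Ctla4 sum of day 3 R26TIR1(F74G) replicate 2 was 275.6 CPM, above 259.7 to 261.4 in the other 3 mice. The Ctla4 start-site window of day 3 R26TIR1(F74G) replicate 1, the shallowest library, held 19.4 CPM, above 13.8 to 14.2. In day 3 R26WT replicate 2 the Tigit sum was 243.4 CPM, above 191.4 to 199.5, and the Havcr2 sum 33.2 CPM, above 30.5 to 30.7. The Btla window at 0.4 kb of day 3 R26TIR1(F74G) replicate 4 held 13.2 CPM, below 15.3 to 15.4. No interaction of day and genotype passed the threshold for any window or gene sum.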

How the results depend on the processing

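The counts of called windows and genes were 0 in 242 of 244 alternatives. The exceptions were 1 gene, Pdcd1, under DESeq2 over both days (log2 fold change 0.18), and 1 window, in Cd96 at 15.6 kb, without day 7 R26WT replicate 1, so that leaving out single mice gave 0 to 1. DESeq2 gave no adjusted p to 6150 genes over both days. The other alternatives left the Pdcd1 sum at 0.13 to 0.19 with adjusted p of 0.128 to 0.321. Of 58 single results, 44 kept their direction in every alternative. With windows within 10 kb the Lag3 sum gave -0.063 on day 3 and -0.013 over both days and the Icos sum -0.023 over both days, and with windows that do not overlap the Havcr2 sum gave -0.0003 on day 3. Over both days the Cd28 window at 30.8 kb gave 0.021 with total counts, 0.055 with loess offsets, 0.024 with the filter raised to 50 mean counts, 0.055 with the replicate block and loess offsets and 0.0006 with index group as a term. The Havcr2 window at -7.1 kb gave -0.0086 with the replicate block and -0.016 with index group, and the Pdcd1 window at -26.7 kb -0.0017 with mouse name prefix. Leaving out single mice moved the sums of Icos (-0.035 to 0.011) and Tigit (-0.0034 to 0.061) on day 7, of Tigit (-0.014 to 0.11), Cd96 (-0.014 to 0.11) and Havcr2 (-0.040 to 0.14) on day 3, and of Cd28 (-0.0030 to 0.039) and Havcr2 (-0.080 to 0.011) over both days. It moved the windows of Havcr2 at -7.1 kb (-0.094 to 0.081), Btla at 0.4 kb (-0.0023 to 0.080), Cd28 at 30.8 kb (-0.071 to 0.047) and Pdcd1 at -26.7 kb (-0.056 to 0.078). The causes were not tested. Mice with the same replicate number did not deviate together (correlations of -0.03 to 0.08), and the replicate block called 0 windows and 0 genes in each comparison.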

Other observations

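A few windows of these genes varied between mice more than most windows of the table did. Among the 205 windows of at least 2 CPM, 15 (7.32%) had an SD of log2 CPM within groups above the 95th percentile of all windows (0.38), and 4 (1.95%) were above the 99th (0.46): the Cd96 window at 15.6 kb, the Btla window at 59.5 kb and the overlapping Cd28 windows at 40.1 and 40.2 kb. These windows were chosen after their values were seen, and no test was run.

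The Cd96 window at 15.6 kb held 1.34 CPM in day 3 R26TIR1(F74G) replicate 2, 1.80 in day 7 R26WT replicate 2, 3.60 in day 7 R26WT replicate 3 and 4.28 in day 7 R26TIR1(F74G) replicate 1, and 6.32 to 8.34 in the other 10 mice. The first 2 of these mice also had the highest values of the Btla window at 59.5 kb on the same chromosome, 5.58 and 6.05 CPM, against 1.57 to 2.97 in the other 12. At a Btla window 37.8 kb from the start (chr16:45261383-45261584) they held 4.94 and 6.05 CPM, with 4.80 in day 7 R26WT replicate 3 and 6.75 to 13.1 in the other 11. The Cd28 window at 40.2 kb (chr1:60786474-60786675) held 0.360 CPM in day 3 R26TIR1(F74G) replicate 1, the shallowest library, and 1.60 to 4.01 in the other 13 mice.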
